A study of Mus musculus with 10 samples.

Results

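Complement and coagulation proteins circulate in blood plasma and are made largely by hepatocytes. A set of 39 genes of both systems was followed across 4 groups of mouse livers. The genes were taken by symbol from a list of complement components, clotting factors, their regulators and related plasma proteins. The rule itself uses no measured value, but the list was chosen with earlier results of these data known. Each was read from the transcript cluster, the set of array probes for 1 transcript unit, that was assigned to that symbol alone. In this way 35 of the 39 genes were measured, out of 22180 named genes on the array, and each had a single such cluster. C3 and Cpb2 were listed with no cluster, and the clusters of Masp2 and Klkb1 were listed with several genes, so these 4 genes have no value here.

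The livers came from fasted male mice, collected about 2 weeks after injection of an adeno-associated virus (AAV) whose TBG promoter drives its cargo in hepatocytes. Mice labelled LTKO gave 2 arrays with the Fst288 virus (LTKO FST288) and 2 with the GFP virus (LTKO GFP). A high fat diet (HFD) was given to the wild type mice, with 3 arrays for the Fst288 virus (HFD FST288) and 3 for the GFP virus (HFD GFP). FST288 is a form of follistatin, which is secreted and neutralises activins, and the GFP virus was its control. LTKO is not spelled out in the labels. The abbreviation is known for liver deletions of Irs1 and Irs2, which relay the insulin signal, together with Foxo1, the transcription factor that this signal holds down. The diet of the LTKO mice and the ages are not stated, so genotype and diet cannot be told apart in any comparison of LTKO with HFD livers. No label states that every array comes from its own animal, and a p-value here reflects the scatter among these 10 samples, which may be technical.

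Complement is a cascade of proteases and pore proteins that marks and lyses microbes. It is started by antibody through the classical pathway, by sugar-binding lectins through the lectin pathway, or spontaneously through the alternative pathway, and all routes end in a terminal complex that pierces membranes. Coagulation is a parallel cascade of proteases that turns fibrinogen into fibrin, and several of its factors need vitamin K for a modification of glutamate residues. Plasminogen dissolves the clot. The transcripts of these genes are controlled in hepatocytes by factors such as HNF1, HNF4 and C/EBP, and some rise as part of the acute phase response to interleukin-6.

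The labelled alleles and vectors were read first. Fst had values of 6.85 and 6.74 in LTKO FST288 livers against 5.39 and 5.30 in LTKO GFP livers, and 6.80, 5.78 and 6.45 in HFD FST288 livers against 5.34, 5.25 and 5.22 in HFD GFP livers, all on the log2 scale of the array. Foxo1 averaged 5.04 ± 0.16 in LTKO GFP livers and 6.72 ± 0.12 in HFD GFP livers (SD, n = 2 and 3), and Irs1 averaged 3.15 ± 0.06 and 4.91 ± 0.20 in the same groups. Irs2 averaged 2.94 ± 0.60 and 4.15 ± 0.12 there, with the LTKO GFP arrays uneven at 2.52 and 3.36. Hepatocyte markers had medians of 12.19 to 12.54 on every array. Single markers still differed, such as Tat at -0.72 and Hnf4a at 0.71 in LTKO GFP against HFD GFP livers. At the threshold given below, 2 of 8 were called lower and 2 higher there, and 2 lower and 1 higher with FST288. These are 50% and 37.5%, beside 13.1% and 10.3% of all genes and 48.4% and 45% of those at a mean of at least 8. On HFD FST288 replicates 2 and 3, 9 of 10 pancreatic acinar markers lay above all 8 other arrays, and the median of the 10 was 7.65 and 6.58, against 2.31 to 2.66 elsewhere. On LTKO FST288 replicate 2, 8 of 8 Kupffer cell markers lay above all 9 other arrays, with a median of 7.36 against 5.23 to 5.86. For calls of members and named pathway genes, fits without these arrays are described with the comparisons. In whole liver RNA, fewer cells of a type and less RNA per cell cannot be told apart.

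Most of the 35 genes gave bright signals, with 30 at a mean of at least 8 on the log2 scale, a level reached by 992 of the 22180 genes. Their means ran from 4.83 to 12.37. Within groups they varied little, with a median pooled SD of 0.11, against 0.16 over all genes and 0.10 over the genes at a mean of at least 8. The 4 group means of a gene spanned a median of 0.45 on the log2 scale, near the 0.43 of the bright genes, against 0.3 over all genes. The span was 1.91 for C6, 1.49 for F11, 1.3 for C9 and 1.24 for Cfi, and 0.04 for Plg, 0.07 for Hrg and 0.08 for Proc. Because bright genes vary less, counts are set beside the share called over all genes and over genes at a mean of at least 8. The threshold for a call was an adjusted p of 0.05, from limma with Benjamini-Hochberg adjustment over all genes, and changes carry the standard error of the fit.

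**Figure D1:**
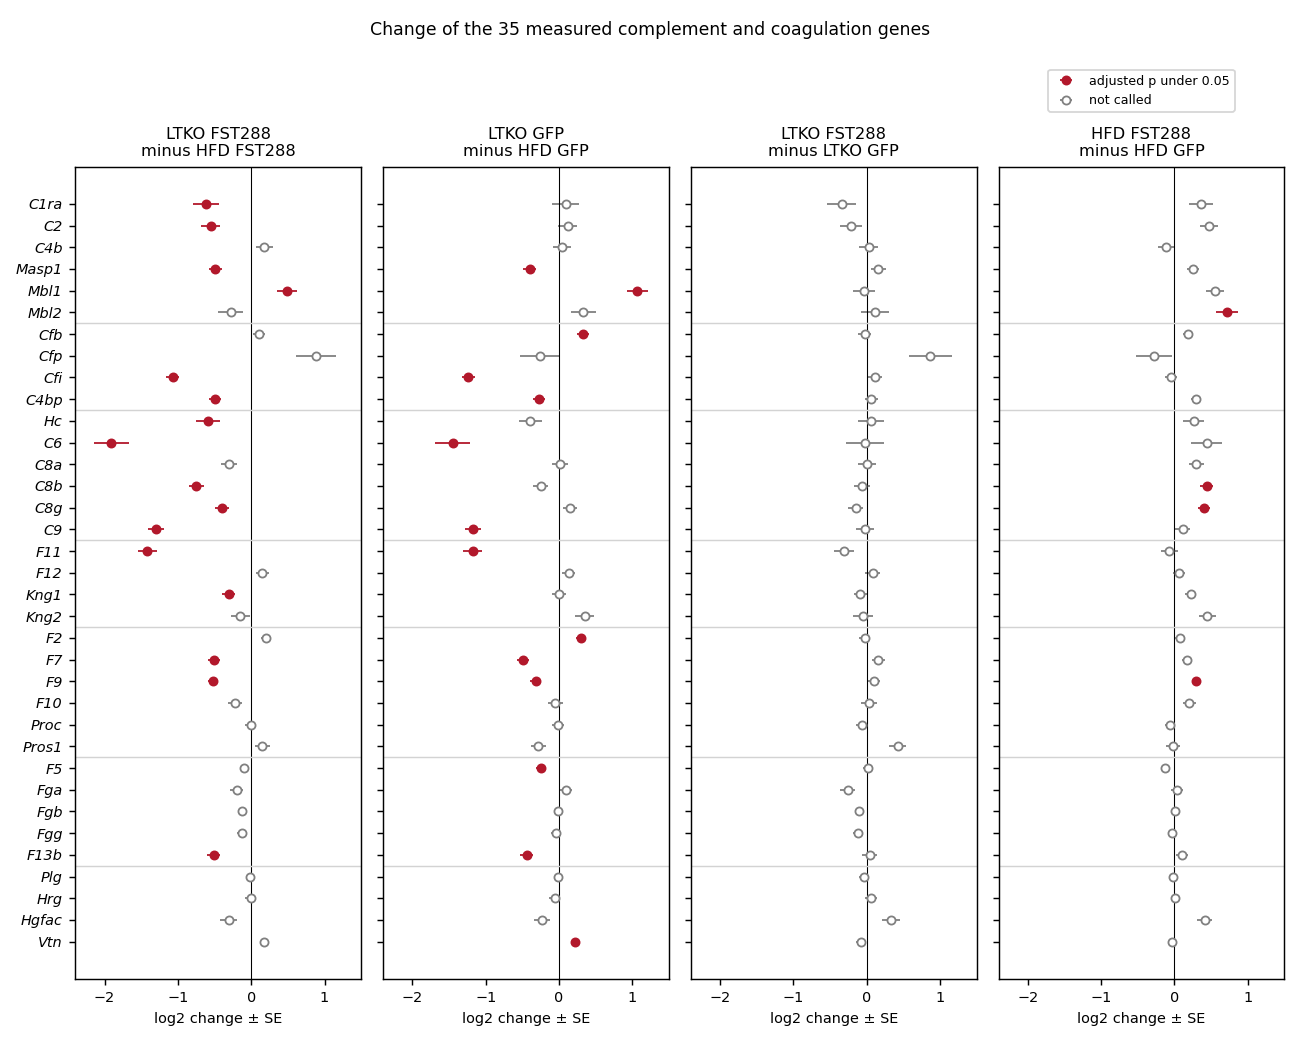
Log2 change ± SE of each of the 35 measured genes (rows, separated by role) in LTKO FST288 against HFD FST288, LTKO GFP against HFD GFP, LTKO FST288 against LTKO GFP and HFD FST288 against HFD GFP livers. Filled points have an adjusted p under 0.05, 16, 14, 0 and 4 of them in these panels, and the lowest values are those of C6, at -1.91 and -1.45.

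The first comparison asked how LTKO livers differ from HFD livers under the GFP virus. The terminal component C6, the complement regulator Cfi, clotting factor F11 and the terminal component C9 fell by 1.45, 1.24, 1.18 and 1.17 on the log2 scale, and the lectin Mbl1 rose by 1.07. In all, 10 of 35 genes fell and 4 rose, or 40.0%, against 13.1% of all genes, 6.4% lower and 6.69% higher. Of genes at a mean of at least 8, 48.4% were called, 21.6% lower and 26.8% higher. Of the 30 members at that level 46.7% were called, so the count is near the background of equally bright genes and is not a result about these systems as a whole. The median change was -0.04, beside 0.01 over all genes. The groups did not overlap in 4 genes that were higher and 13 that were lower in LTKO GFP livers, or 11.4% and 37.1%, beside 21.1% and 19.2% of all genes and 39.7% and 31.8% of those at a mean of at least 8.

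The second comparison set LTKO against HFD livers under the FST288 virus, with none of the arrays of the first. C6, F11, C9 and Cfi fell by 1.91, 1.42, 1.3 and 1.07, and Mbl1 rose by 0.49. Here 15 genes fell and 1 rose, or 45.7%, against 10.3% of all genes, 5.29% lower and 5.05% higher. Of genes at a mean of at least 8, 45% were called, 25.6% lower and 19.4% higher. The groups did not overlap in 6 genes that were higher and 22 that were lower in LTKO FST288 livers, or 17.1% and 62.9%, beside 18.8% and 18.6% of all genes and 32.3% and 39.7% of those at a mean of at least 8. The median change of the 35 genes was -0.28, beside 0 over all genes and -0.03 over the bright ones. Of the called genes, 10 were shared and had the same direction under both vectors, which is 71.4% of those called with GFP and 62.5% of those called with FST288. Over all genes the shared calls were 48.7% and 61.7%. The shared calls of genes at a mean of at least 8 were not counted, so these shares lack a background of equal brightness. HFD FST288 arrays 2 and 3, with their acinar transcripts, enter this comparison. Without these 2 arrays 8 of the 16 calls were counted, and with the acinar median as a covariate 9. With the covariate the calls of C1ra, C2, Mbl1, C4bp, Hc, C8g and Kng1 were lost, at -0.59, -0.42, 0.65, -0.37, -0.44, -0.41 and -0.30, and without the 2 arrays also that of F13b, at -0.52 (adjusted p = 0.064).

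**Figure D2:**
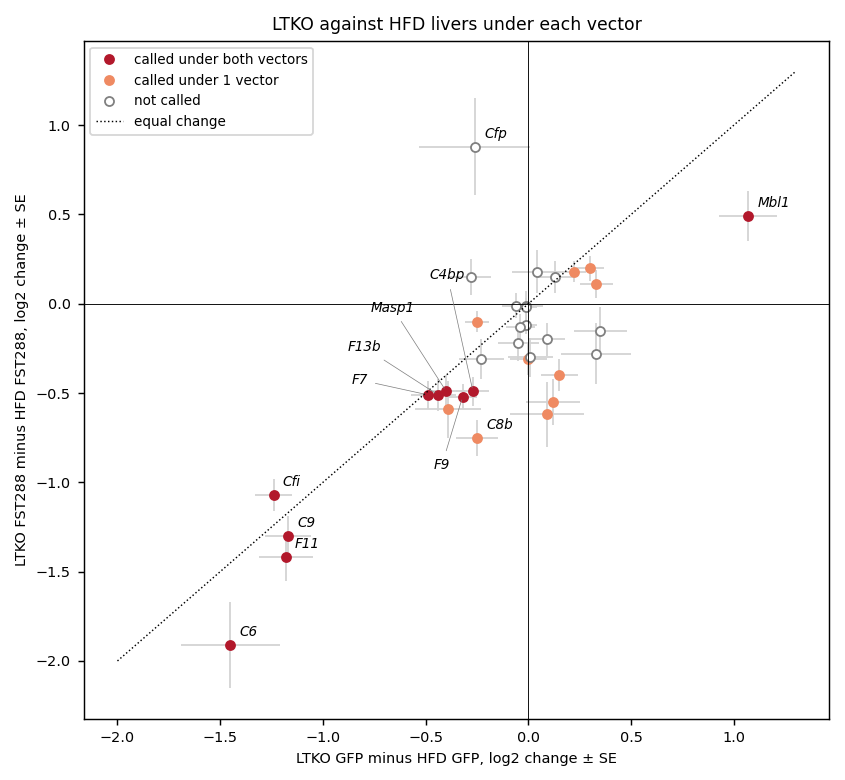
Change of each gene in LTKO against HFD livers with GFP (horizontal axis) and with FST288 (vertical axis), as log2 change ± SE. C6, F11, C9 and Cfi lie below -1 on both axes, Mbl1 lies at 1.07 and 0.49, and Cfp lies apart at -0.26 and 0.88 without a call.

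The initiators of the classical and lectin pathways moved in both directions. Mbl1, a mannose-binding lectin that starts the lectin pathway, read 8.61 and 8.40 in LTKO FST288 livers and 8.77 and 8.31 in LTKO GFP livers, against 7.87, 8.13 and 8.06 in HFD FST288 livers and 7.64, 7.40 and 7.38 in HFD GFP livers. All 4 LTKO arrays were above all 6 HFD arrays. The rise was 2.1-fold with GFP (adjusted p = 0.000152) and 1.40-fold with FST288 (adjusted p = 0.0389). With 1 array left out at a time, 7 of 10 fits lost the FST288 call, namely those without either LTKO FST288 array, any HFD FST288 array or HFD GFP replicate 2 or 3, with changes of 0.38 to 0.59 and adjusted p up to 0.257. The second mannose-binding lectin, Mbl2, was not called, at 0.33 ± 0.17 with GFP and -0.28 ± 0.17 with FST288.

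Masp1, a protease that joins mannose-binding lectins, had 8.37 and 8.29 in LTKO FST288 and 8.27 and 8.06 in LTKO GFP livers, against 8.88, 8.84 and 8.74 in HFD FST288 and 8.50, 8.53 and 8.67 in HFD GFP livers. It fell by 0.49 ± 0.09 with FST288 (adjusted p = 0.00328) and by 0.40 ± 0.09 with GFP (adjusted p = 0.0105). Without LTKO GFP replicate 2 the GFP change was -0.30 (adjusted p = 0.114). The classical pathway proteases C1ra and C2 were called with FST288 alone, at -0.62 ± 0.18 and -0.55 ± 0.13 (adjusted p = 0.0452 and 0.0171), and gave 0.09 ± 0.18 and 0.12 ± 0.13 with GFP. Their FST288 calls were lost without LTKO FST288 replicate 1 or HFD FST288 replicate 2, and that of C1ra also without LTKO FST288 replicate 2, HFD FST288 replicate 1 or HFD GFP replicate 1. In those fits the changes were -0.67 to -0.47 for C1ra and -0.48 to -0.41 for C2, with adjusted p up to 0.212 and 0.172. C4b, which is cleaved by C1 and lectin proteases, was not called, at 0.18 ± 0.12 and 0.04 ± 0.12. C1ra and C4b have near-identical neighbours, C1rb and C4a, and the array may not separate them.

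Among the alternative pathway genes and regulators, Cfi and C4bp, which hold complement in check, fell in LTKO livers under both vectors. Cfi, the protease that cuts up active C3b and C4b, read 10.03 and 9.95 in LTKO FST288 and 9.72 and 10.03 in LTKO GFP livers, against 11.10, 11.07 and 11.01 in HFD FST288 and 11.23, 11.03 and 11.09 in HFD GFP livers. The 4 LTKO arrays lay about 1 unit below the 6 HFD arrays, 2.1-fold lower with FST288 (adjusted p = 3.24e-06) and 2.36-fold lower with GFP (adjusted p = 9.53e-07). C4bp, which presents C4b to that protease, had 10.50 and 10.52 in LTKO FST288 and 10.37 and 10.52 in LTKO GFP livers, against 10.89, 11.10 and 11.02 in HFD FST288 and 10.82, 10.70 and 10.62 in HFD GFP livers. It fell by 0.49 ± 0.08 (adjusted p = 0.00113) and by 0.27 ± 0.08 (adjusted p = 0.0466). The GFP call was lost without LTKO GFP replicate 1, HFD FST288 replicate 2 or 3 or HFD GFP replicate 1 or 2, at -0.27 to -0.19. It was also lost without HFD FST288 replicates 2 and 3 together, at -0.27.

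Cfb, the protease of the alternative pathway, rose by 0.33 ± 0.08 with GFP (adjusted p = 0.0173), at 10.03 and 9.96 in LTKO GFP livers against 9.63, 9.63 and 9.75 in HFD GFP livers. That call was lost without HFD GFP replicate 1 or 2 or LTKO GFP replicate 1, with changes of 0.29 to 0.31 and adjusted p up to 0.113. With FST288 its change was 0.11 ± 0.08 (adjusted p = 0.504). Cfp, or properdin, which steadies the alternative pathway enzyme and comes mainly from leukocytes, gave -0.26 ± 0.27 with GFP and 0.88 ± 0.27 with FST288 (adjusted p = 0.0528). Its values are taken up with the Kupffer cell markers.

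The terminal complement genes encode the proteins that assemble into the membrane pore. With FST288, 5 of 6 fell and 0 rose, or 83.3%, and with GFP 2 fell and 0 rose, or 33.3%. The shares called were 45% and 48.4% of genes at a mean of at least 8, and 10.3% and 13.1% of all genes. With the acinar covariate the FST288 calls of Hc and C8g were lost, at -0.44 and -0.41, and those of C6, C8b and C9 held. C6, the second protein to join, had values of 8.42 and 7.23 in LTKO FST288 and 7.75 and 7.94 in LTKO GFP livers, against 9.77, 9.78 and 9.68 in HFD FST288 and 9.36, 9.09 and 9.44 in HFD GFP livers. All LTKO arrays were below all HFD arrays, and the LTKO FST288 pair had an SD of 0.84. C6 was 3.77-fold lower with FST288 (adjusted p = 0.000108) and 2.73-fold lower with GFP (adjusted p = 0.000973).

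C9, which polymerises to line the pore, read 9.75 and 9.46 in LTKO FST288 and 9.51 and 9.75 in LTKO GFP livers, against 10.74, 11.05 and 10.93 in HFD FST288 and 10.85, 10.72 and 10.83 in HFD GFP livers. The LTKO values again lay below all HFD values, 2.46-fold lower with FST288 (adjusted p = 3.16e-06) and 2.25-fold lower with GFP (adjusted p = 8.46e-06). The 3 chains of component C8 were not all called, and differences between the chains were not tested. C8b fell by 0.75 ± 0.10 with FST288 (adjusted p = 0.000282) and gave -0.25 ± 0.10 with GFP (adjusted p = 0.141). C8g fell by 0.40 ± 0.09 with FST288 (adjusted p = 0.0107) and gave 0.15 ± 0.09 with GFP, and C8a was called under neither vector, at -0.30 ± 0.11 and 0.01 ± 0.11.

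Hc, the gene of component C5, fell by 0.59 ± 0.16 with FST288 (adjusted p = 0.0312) and gave -0.39 ± 0.16 with GFP (adjusted p = 0.146). Its LTKO arrays were uneven, at 10.55 and 10.91 with FST288 and 10.33 and 11.02 with GFP, against 11.16, 11.36 and 11.44 in HFD FST288 and 11.07, 10.98 and 11.13 in HFD GFP livers. The FST288 call of Hc was lost without LTKO FST288 replicate 1 or HFD FST288 replicate 2 or 3, at -0.57 to -0.41 with adjusted p up to 0.265. That of C8g was lost without LTKO FST288 replicate 1, at -0.37 (adjusted p = 0.0739). The calls of C6, C8b and C9 with FST288, and of C6 and C9 with GFP, held in all 10 fits that left out 1 array.

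In the contact system, which starts clotting on charged surfaces, F11 stood apart from its neighbours in the cascade. F11 read 7.76 and 7.39 in LTKO FST288 and 7.68 and 8.09 in LTKO GFP livers, against 9.0, 9.06 and 8.91 in HFD FST288 and 9.19, 9.0 and 9.01 in HFD GFP livers. Every LTKO array was below every HFD array, 2.67-fold lower with FST288 (adjusted p = 8.36e-06) and 2.26-fold lower with GFP (adjusted p = 4e-05). F12, the protease that activates it, was not called, at 0.15 ± 0.09 and 0.13 ± 0.09, with 95% intervals of -0.06 to 0.35 and -0.07 to 0.34. Kng1, the kininogen from which bradykinin is cut, fell by 0.31 ± 0.09 with FST288 (adjusted p = 0.0362) and gave 0.00 ± 0.09 with GFP. That call was lost without either LTKO FST288 array or without HFD FST288 replicate 1 or 2, at -0.33 to -0.25 with adjusted p up to 0.17. Its close paralog Kng2 was not called, at -0.15 ± 0.13 and 0.35 ± 0.13, and probes of the pair may cross-read.

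Of the vitamin K-dependent genes, F7 and F9 fell under both vectors. F7, which binds tissue factor to start clotting, had 8.42 and 8.33 in LTKO FST288 and 8.20 and 8.23 in LTKO GFP livers, against 8.95, 8.85 and 8.86 in HFD FST288 and 8.68, 8.75 and 8.70 in HFD GFP livers. It fell by 0.51 ± 0.08 (adjusted p = 0.00066) and 0.49 ± 0.08 (adjusted p = 0.0008), and the LTKO arrays did not overlap the HFD arrays. F9, the factor missing in haemophilia B, had 10.30 and 10.23 in LTKO FST288 and 10.22 and 10.11 in LTKO GFP livers, against 10.81, 10.77 and 10.77 in HFD FST288 and 10.39, 10.51 and 10.56 in HFD GFP livers. It fell by 0.52 ± 0.07 (adjusted p = 0.000231) and 0.32 ± 0.07 (adjusted p = 0.00776), and without LTKO GFP replicate 2 the GFP change was -0.26 (adjusted p = 0.0717).

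F2, or prothrombin, moved the other way. It rose by 0.30 ± 0.07 with GFP (adjusted p = 0.0143), at 10.68 and 10.66 in LTKO GFP livers against 10.26, 10.47 and 10.39 in HFD GFP livers, and gave 0.20 ± 0.07 with FST288 (adjusted p = 0.118). The call was lost without HFD GFP replicate 1 or either LTKO GFP array, at 0.24 to 0.30 with adjusted p up to 0.076. F10, at which the arms of the cascade meet, was not called, at -0.22 ± 0.10 and -0.05 ± 0.10. The anticoagulant Proc (protein C) gave -0.01 ± 0.08 in both comparisons, and its cofactor Pros1 gave 0.15 ± 0.10 and -0.28 ± 0.10. So 2 of 6 fell with FST288, or 33.3%, and 2 fell and 1 rose with GFP, or 50%. The shares called were 45% and 48.4% of genes at a mean of at least 8, and 10.3% and 13.1% of all genes.

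Downstream, F13b fell and the fibrinogen chains did not pass the test. F13b, the carrier subunit of the enzyme that cross-links fibrin, read 8.74 and 9.04 in LTKO FST288 and 8.84 and 8.87 in LTKO GFP livers, against 9.41, 9.42 and 9.37 in HFD FST288 and 9.35, 9.24 and 9.30 in HFD GFP livers. It fell by 0.51 ± 0.09 (adjusted p = 0.0019) and 0.44 ± 0.09 (adjusted p = 0.00453), with no LTKO array as high as any HFD array. F5, the cofactor that speeds thrombin formation, fell by 0.25 ± 0.06 with GFP (adjusted p = 0.0181) and gave -0.10 ± 0.06 with FST288. The F5 call was lost without HFD GFP replicate 2 or LTKO GFP replicate 1, at -0.23 to -0.20 with adjusted p up to 0.136.

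The 3 fibrinogen chains, Fga, Fgb and Fgg, gave -0.20 ± 0.09, -0.12 ± 0.05 and -0.13 ± 0.07 with FST288 and 0.09 ± 0.09, -0.01 ± 0.05 and -0.04 ± 0.07 with GFP. For Fgb with GFP the 95% interval was -0.13 to 0.10. Plg, the precursor of the clot-dissolving enzyme plasmin, gave -0.02 ± 0.05 and -0.01 ± 0.05, with 95% intervals of -0.14 to 0.09 and -0.12 to 0.11. Hrg, which binds plasminogen and heparin, gave -0.01 ± 0.07 and -0.06 ± 0.07. Hgfac, the protease that activates hepatocyte growth factor, gave -0.31 ± 0.11 and -0.23 ± 0.11. Vtn, or vitronectin, rose by 0.22 ± 0.06 with GFP (adjusted p = 0.0211) and gave 0.18 ± 0.06 with FST288 (adjusted p = 0.0646). Without HFD GFP replicate 1 or 3 or LTKO GFP replicate 2 its GFP call was lost, at 0.19 to 0.22. The GFP call of Vtn was also lost without HFD FST288 replicates 2 and 3 together, at 0.22.

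**Figure D3:**
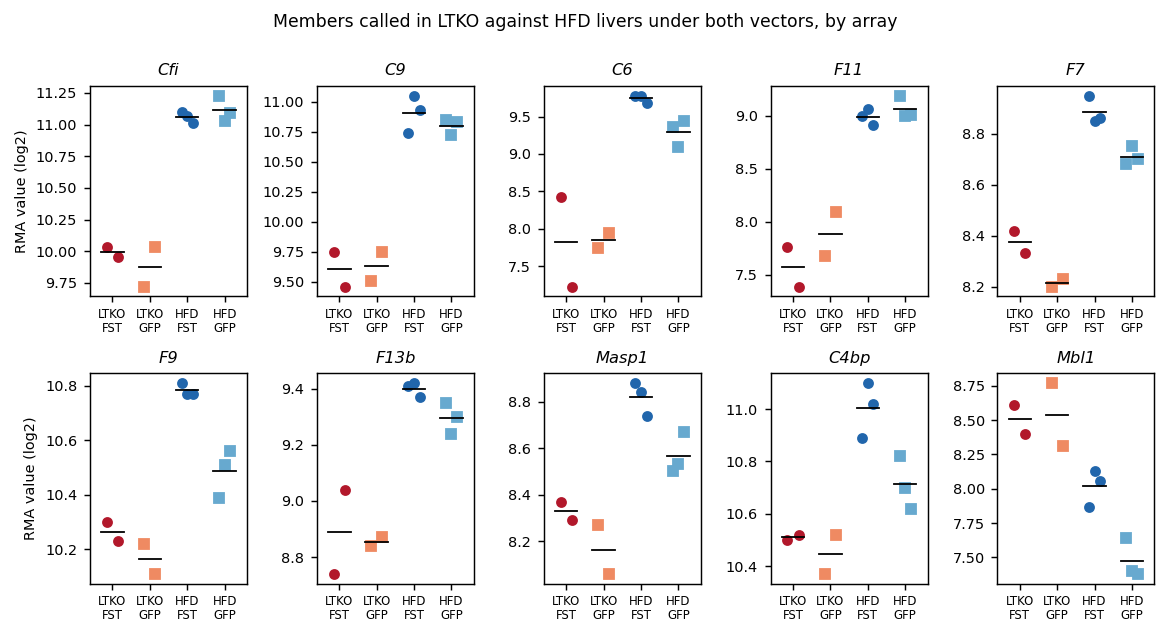
RMA values (log2) on each of the 10 arrays of the 10 genes called in LTKO against HFD livers under both vectors, with the group mean as a line. In each of the 9 genes that fell, all LTKO arrays lie below all HFD arrays, closest in F9 at 10.30 against 10.39. In Mbl1 all LTKO arrays lie above.

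Promoter sequences are shown for 4 members that fell in LTKO livers and for Fgb, which was never called, all with a motif match. Each is the 250 bases before the gene's start in RefSeq on GRCm38.p6, written 5′ to 3′ on the gene's own strand, with motif matches in capitals. They are a FoxO site (GTAAACA) in F11, a C/EBP core (TTGCAA) in C6, an HNF1 core (GTTAAT, read here as ATTAAC because it lies on the opposite strand) in C8b, F13b and Fgb, and an interleukin-6 element (CTGGGAA) in Fgb.
F11 (chr8:45262032-45262281, reverse strand): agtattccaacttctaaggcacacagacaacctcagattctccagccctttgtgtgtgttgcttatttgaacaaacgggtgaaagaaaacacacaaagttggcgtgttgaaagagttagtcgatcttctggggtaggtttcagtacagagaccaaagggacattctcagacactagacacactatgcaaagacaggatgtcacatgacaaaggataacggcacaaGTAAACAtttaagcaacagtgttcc
C6 (chr15:4726960-4727209, forward strand): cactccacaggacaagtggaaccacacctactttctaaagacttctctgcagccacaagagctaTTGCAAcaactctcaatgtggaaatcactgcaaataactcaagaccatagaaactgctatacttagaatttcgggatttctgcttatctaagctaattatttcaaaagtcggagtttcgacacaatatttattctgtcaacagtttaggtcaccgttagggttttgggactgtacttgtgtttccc
C8b (chr4:104766067-104766316, forward strand): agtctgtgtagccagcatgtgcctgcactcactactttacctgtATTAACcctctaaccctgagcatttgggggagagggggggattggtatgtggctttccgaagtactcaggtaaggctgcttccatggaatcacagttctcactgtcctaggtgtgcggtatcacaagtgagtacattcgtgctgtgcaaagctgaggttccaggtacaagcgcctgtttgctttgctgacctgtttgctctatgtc
F13b (chr1:139501457-139501706, forward strand): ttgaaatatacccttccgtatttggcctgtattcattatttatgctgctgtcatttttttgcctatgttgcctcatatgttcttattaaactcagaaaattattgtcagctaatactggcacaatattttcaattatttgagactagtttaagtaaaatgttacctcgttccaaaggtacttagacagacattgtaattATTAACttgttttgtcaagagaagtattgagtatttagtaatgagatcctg
Fgb (chr3:83049864-83050113, reverse strand): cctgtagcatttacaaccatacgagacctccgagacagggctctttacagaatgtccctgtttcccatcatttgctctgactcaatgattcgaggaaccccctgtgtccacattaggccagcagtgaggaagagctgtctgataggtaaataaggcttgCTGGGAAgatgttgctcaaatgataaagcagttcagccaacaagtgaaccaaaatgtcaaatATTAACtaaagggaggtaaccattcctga

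The motifs were searched on both strands of these 250 bases in the 31 listed genes that the table holds. Among them are the unmeasured C3, Cpb2, Masp2 and Klkb1. C2, C4b, Cfb, Cfi, Masp1, Plg, Proc and Kng1 had no entry. The HNF1 core was present in 11 of 31, or 35.5%, against 7.49% of 27025 genes in the table. These were C1ra, Cfp, C4bp, Hc, C8a, C8b, Fga, Fgb, F13b, Hgfac and Vtn, which include genes that fell, genes that rose and genes never called. The C/EBP core stood in C6, Kng2, Fga and Fgg, 12.9% against 6.09%, and the interleukin-6 element in 5 genes, 16.1% against 10.4%. The HNF4 core CAAAGTC stood in 1 gene, Vtn, 3.23% against 4.33%. The FoxO site stood in 2 genes, F11, 25 to 19 bases before its start, and its chromosomal neighbour Klkb1, 6.45% against 3.54%. C9, F7 and Mbl1, called in LTKO against HFD livers under both vectors, had an entry and no match to any of these motifs. A match of letters is a description and not a bound site, and binding was not measured.

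Several members lie side by side in the GRCm38.p6 annotation with 0 other protein-coding genes between them, and several such neighbours had unlike calls. F7 fell in LTKO livers under both vectors and its neighbour F10 was not called. C8b fell with FST288 and C8a did not pass the test. Cfb rose with GFP, where C2 gave 0.12 ± 0.13, and C2 fell with FST288, where Cfb gave 0.11 ± 0.08. Kng1 fell with FST288, where its neighbour Kng2 was not called. Hrg and Kng2, Fgg and Fga, and Fga and Fgb are neighbours with no call in any comparison, and Klkb1, next to F11, has no value. Differences between neighbours were not tested.

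Other genes of these pathways were read from lists that hold no member. Of 27 other complement genes measured, 2 fell and 0 rose in LTKO GFP against HFD GFP livers. This is 7.41%, beside 13.1% of all genes and 48.4% of those at a mean of at least 8. Cd59a, which shields the cell's own membrane from the terminal pore, fell by 1.05 ± 0.23 (adjusted p = 0.00839), and C1s1, the protease that works with C1r, fell by 0.62 ± 0.16 (adjusted p = 0.0172). The signal of C1s1 was weak, at 2.89 and 2.70 in LTKO GFP livers against 3.34, 3.58 and 3.31 in HFD GFP livers. The array medians of named genes were 3.1 to 3.17. Without LTKO GFP replicate 2 Cd59a gave -0.48 (adjusted p = 0.0627), and C1s1 lost its call without that array or HFD GFP replicate 2, with adjusted p up to 0.135. With FST288, 6 rose and 1 fell, or 25.9%, beside 10.3% of all genes and 45% of those at a mean of at least 8. The fall was that of Cd59a again, at -2.03 ± 0.23 (adjusted p = 5.89e-05). The 6 that rose were Vsig4, Colec11, Itgb2 and the 3 C1q chains. Vsig4, a complement receptor of Kupffer cells, gave 1.28 ± 0.26, the lectin Colec11 0.57 ± 0.14 and Itgb2, a chain of leukocyte complement receptors, 0.72 ± 0.19 (adjusted p = 0.00503, 0.0161 and 0.0299). Without LTKO FST288 replicate 2, the array with high Kupffer cell markers, 0 of the 6 were called, at 0.76, 0.44 and 0.34 for these 3, and the C1q values are given with Cfp. The 6 were also not called with the acinar covariate or without HFD FST288 replicates 2 and 3, where the call of Cd59a held. The medians of the list were -0.05 with GFP and 0.10 with FST288.

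Of 28 other coagulation and fibrinolysis genes, 3 fell and 1 rose with GFP, and 5 fell and 0 rose with FST288. These calls are 14.3% and 17.9%, beside 13.1% and 10.3% of all genes and 48.4% and 45% of those at a mean of at least 8. F2r, a thrombin receptor, fell by 1.15 ± 0.13 with GFP and by 1.34 ± 0.13 with FST288 (adjusted p = 5.71e-05 and 1.54e-05). Lman1, the cargo receptor that exports F5 and factor VIII from the endoplasmic reticulum, fell by 0.57 ± 0.09 and 0.62 ± 0.09 (adjusted p = 0.000941 and 0.000569). Its partner Mcfd2 rose by 0.56 ± 0.14 with GFP (adjusted p = 0.0171), but not in fits without HFD GFP replicate 1 or LTKO GFP replicate 2, where adjusted p was up to 0.17. Tfpi, an inhibitor of the tissue factor pathway, fell by 0.51 ± 0.16 with GFP (adjusted p = 0.0446), and 7 of the 10 fits that left out 1 array lost that call, with adjusted p up to 0.233. With FST288, Serpina10 and Serpind1, inhibitors of F10 and F2 proteases, fell by 0.59 ± 0.11 and 0.39 ± 0.07 (adjusted p = 0.00257 and 0.00264). With the acinar covariate, 2 of the 5 genes called lower with FST288 kept their call, F2r and Lman1, and the same 2 without HFD FST288 replicates 2 and 3. Serpina10 and Serpind1 then gave -0.36 and -0.36 with the covariate and -0.38 and -0.37 without the 2 arrays, with adjusted p of 0.0717 to 0.159.

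Of 4 vitamin K cycle genes, 2 rose and 1 fell with GFP, and 2 rose and 0 fell with FST288. These calls are 75% and 50%, beside 13.1% and 10.3% of all genes. Of genes at a mean of at least 8, 48.4% and 45% were called. Vkorc1, the reductase blocked by warfarin, rose by 0.77 ± 0.12 with GFP (adjusted p = 0.000704) and 0.42 ± 0.12 with FST288 (adjusted p = 0.0392). With 1 array left out at a time, 6 of 10 fits lost the FST288 call, those without either LTKO FST288 array, HFD FST288 replicate 1 or 3 or HFD GFP replicate 2 or 3, at 0.35 to 0.51 over all fits. It gave 0.59 with the acinar covariate (adjusted p = 0.0482) and 0.56 without HFD FST288 replicates 2 and 3 (adjusted p = 0.0862). Nqo1, a quinone reductase, rose by 1.34 ± 0.18 in both comparisons (adjusted p = 0.000174 and 0.000188). Vkorc1l1 fell by 0.44 ± 0.11 with GFP (adjusted p = 0.016), and gave -0.32 without LTKO GFP replicate 2 (adjusted p = 0.155). Of 19 regulators of liver plasma protein genes, 6 fell and 2 rose with GFP, and 8 fell and 1 rose with FST288. These calls are 42.1% and 47.4%, beside 13.1% and 10.3% of all genes and 48.4% and 45% of those at a mean of at least 8. Foxo1, read above as a check of the LTKO label, is among the falls under both vectors. The known use of that abbreviation includes its deletion. Hnf4a, a master factor of hepatocyte genes, rose by 0.71 ± 0.08 with GFP (adjusted p = 3.71e-05) and gave 0.24 ± 0.08 with FST288 (adjusted p = 0.0801). Cebpb, a factor of the acute phase response, fell by 0.80 ± 0.11 with GFP (adjusted p = 0.000243), and Il1r1, the interleukin-1 receptor, fell by 1.19 ± 0.14 with GFP (adjusted p = 6.33e-05) and by 2.31 ± 0.14 with FST288 (adjusted p = 1.64e-07). With FST288, Onecut1, a hepatocyte transcription factor, fell by 2.13 ± 0.25 (adjusted p = 7.02e-05). Cebpb was also called with FST288, at -0.69, and Onecut1 also with GFP, at -1.24. The GFP call of Onecut1 was lost without LTKO GFP replicate 2. The FST288 calls of Il1r1 and Onecut1 held with the acinar covariate and without HFD FST288 replicates 2 and 3. Socs3, a brake on interleukin-6 signalling and the 1 regulator that rose with FST288, gave 0.61 and was not called in either fit or without LTKO FST288 replicate 2 (adjusted p of 0.111 to 0.192).

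The third comparison asked what FST288 changes in HFD livers. Mbl2, the terminal component chains C8b and C8g, and F9 rose, by 0.72, 0.44, 0.40 and 0.30 on the log2 scale, and no member fell. These 4 of 35 are 11.4%, against 0.996% of all genes, 0.577% higher and 0.419% lower. Among genes at a mean of at least 8, 7.46% were called, 4.84% higher and 2.62% lower, and 4 of the 30 members at that level are 13.3%. At an unadjusted p under 0.05 there were 17 members, or 48.6%, beside 12% of all genes and 34.9% of the bright ones. FST288 values lay wholly above GFP values in 17 members and wholly below in 2 (F5 and Cfp), or 48.6% and 5.71%, against 9.3% and 9.11% of all genes and 32.4% and 14.4% of the bright ones. The median change was 0.17, beside 0 over all genes and 0.06 over the bright ones.

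Mbl2 had 9.99, 9.78 and 9.90 in HFD FST288 livers against 8.94, 9.49 and 9.08 in HFD GFP livers, a rise of 1.65-fold (adjusted p = 0.0419). C8b had 11.16, 11.28 and 11.19 in HFD FST288 livers against 10.88, 10.60 and 10.82 in HFD GFP livers, 1.36-fold higher (adjusted p = 0.0392). C8g had 9.37, 9.32 and 9.41 in HFD FST288 livers against 9.12, 8.96 and 8.82 in HFD GFP livers, 1.32-fold higher (adjusted p = 0.0328). F9 was the tightest, with the 3 HFD FST288 arrays between 10.77 and 10.81 and the 3 HFD GFP arrays between 10.39 and 10.56, 1.23-fold higher (adjusted p = 0.0385). In each of the 4 genes the lowest FST288 value exceeded the highest GFP value.

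None of these 4 calls held throughout. Each was lost without HFD FST288 replicate 1, 2 or 3 and without HFD GFP replicate 3, those of C8b and F9 also without HFD GFP replicate 1 or 2, that of Mbl2 without HFD GFP replicate 1 and that of C8g without HFD GFP replicate 2. In those fits the changes were 0.61 to 0.78 for Mbl2, 0.36 to 0.50 for C8b, 0.33 to 0.42 for C8g and 0.25 to 0.33 for F9, with adjusted p up to 0.18, 0.184, 0.173 and 0.16. With the acinar median as a covariate the changes were 0.83, 0.38, 0.40 and 0.32, and without HFD FST288 replicates 2 and 3 they were 0.82, 0.39, 0.40 and 0.32, in both cases with 0 calls. When the arrays were quantile normalized again, the changes were 0.66, 0.41, 0.34 and 0.26, and again 0 of 35 were called, with adjusted p of 0.0529 to 0.0895.

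Members below the threshold had values as large. Mbl1 gave 0.55 ± 0.12 (adjusted p = 0.0579), C2 gave 0.47 ± 0.12 (adjusted p = 0.0982), Kng2 gave 0.45 ± 0.12 (adjusted p = 0.108) and Hgfac gave 0.41 ± 0.10 (adjusted p = 0.0675). All 6 terminal complement genes had positive changes, of 0.11 to 0.44. The 3 most negative by unadjusted p were F5 at -0.13 ± 0.06, Cfp at -0.28 ± 0.24 and C4b at -0.11 ± 0.11, with adjusted p of 0.355 to 0.771. The fibrinogen chains and Plg gave -0.03 to 0.03. C9, Cfi and F11, which fell in LTKO livers, gave 0.11 ± 0.10, -0.05 ± 0.08 and -0.07 ± 0.12 with FST288 in HFD livers. The HFD FST288 arrays also enter the comparison of LTKO FST288 with HFD FST288 livers, so values such as 0.44 and -0.75 for C8b in the 2 comparisons share arrays.

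**Figure D4:**
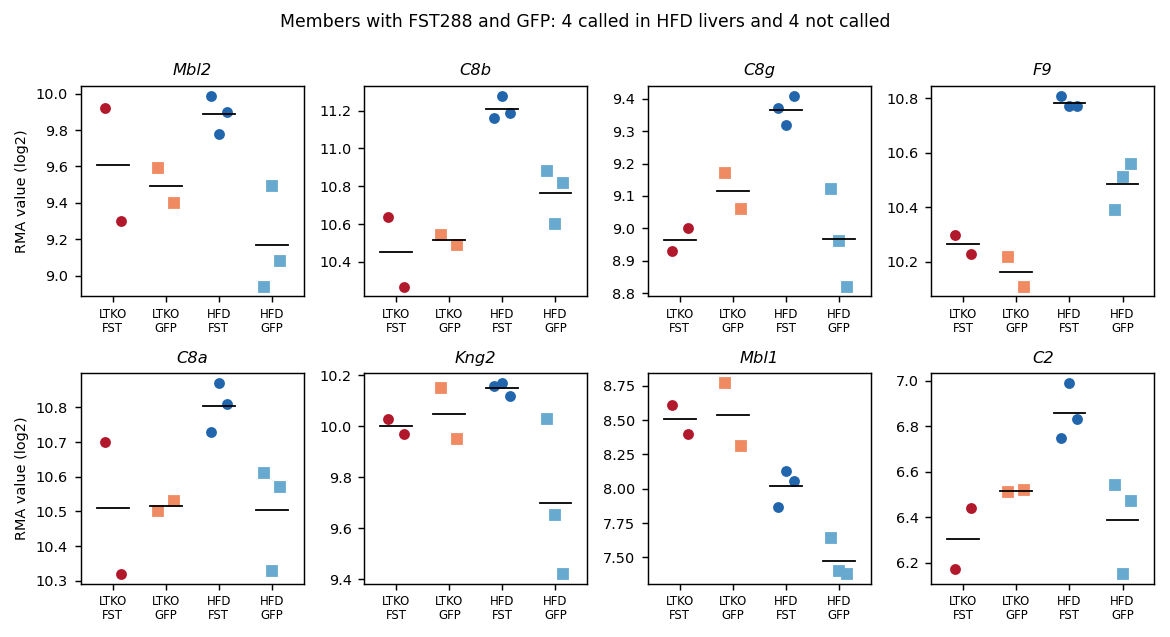
RMA values (log2) on each array of the 4 genes called with FST288 in HFD livers (top row) and of 4 genes not called there (bottom row, chosen after their values were seen), with group means as lines. In the top row the 3 HFD FST288 arrays lie above the 3 HFD GFP arrays, by the narrowest gap in C8g, where 9.32 stands against 9.12.

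Of the pathway lists, Serpina10 rose by 0.49 ± 0.10 among the other coagulation genes (adjusted p = 0.0286) in HFD FST288 against HFD GFP livers. Of 27 other complement genes limma called 0, with 3 at an unadjusted p under 0.05. Serpina10 lost its call without any 1 of HFD GFP replicates 2 and 3 and HFD FST288 replicates 2 and 3, with adjusted p up to 0.151. Among the regulators, Onecut1 rose by 1.54 ± 0.22 (adjusted p = 0.00469) and Il1r1 by 0.95 ± 0.12 (adjusted p = 0.0025). Both calls held in all 10 fits that left out 1 array. With the acinar covariate Onecut1 gave 1.85 (adjusted p = 0.0364), Il1r1 0.95 (adjusted p = 0.0865) and Serpina10 0.26 (adjusted p = 0.697). Without HFD FST288 replicates 2 and 3 none of the 3 was called, at 1.81, 0.96 and 0.28 (adjusted p = 0.0939, 0.232 and 0.862).

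The fourth comparison set FST288 against GFP in LTKO livers. No member was called by limma, beside 0.167% of all genes, with 5 members, or 14.3%, at an unadjusted p under 0.05, beside 9.98% of all genes and 20.3% of those at a mean of at least 8. The median change was -0.02, as over all genes. The members with the smallest unadjusted p were Pros1 at 0.42 ± 0.11, Cfp at 0.87 ± 0.29 and Hgfac at 0.33 ± 0.12 among the positive ones (adjusted p of 0.226 to 0.357), and Fga at -0.26 ± 0.10, F11 at -0.31 ± 0.14 and C1ra at -0.34 ± 0.20 among the negative ones (adjusted p of 0.373 to 0.623). Without LTKO FST288 replicate 1, 1 member was called, Cfp at 1.45 (adjusted p = 0.00668), which then rests on replicate 2 alone. For the genes called in HFD livers the changes and 95% intervals were 0.11 (-0.30 to 0.51) for Mbl2, -0.06 (-0.30 to 0.19) for C8b, -0.15 (-0.37 to 0.06) for C8g and 0.10 (-0.07 to 0.26) for F9. With 2 arrays per group these intervals are wide, and they do not show that FST288 left the genes as they were.

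Cfp followed 1 array. It read 5.35 and 6.52 in LTKO FST288 livers and 5.30 and 4.84 in LTKO GFP livers, against 5.11, 4.96 and 5.10 in HFD FST288 and 5.65, 5.15 and 5.20 in HFD GFP livers. The high value is LTKO FST288 replicate 2, the array on which 8 of 8 Kupffer cell markers were highest. Without it the change of Cfp in LTKO FST288 was 0.28 against LTKO GFP and 0.30 against HFD FST288, with adjusted p of 0.804 and 0.574. The C1q chains, which start the classical pathway and are made by macrophages, were highest on the same array, with C1qa at 7.0, C1qb at 7.62 and C1qc at 6.60, against 6.19, 6.52 and 5.55 on LTKO FST288 replicate 1. C1qa, C1qb and C1qc were called against HFD FST288 livers, at 0.73, 1.02 and 0.93, and gave 0.33, 0.47 and 0.40 without that array (adjusted p of 0.287 to 0.473). The Kupffer markers had a median change of 0.76 in LTKO FST288 against LTKO GFP livers, with 8 of 8 positive and 0 called. Against HFD FST288 livers the median was 1.08, with 6 called, of which 2 were still called with the acinar covariate. Without LTKO FST288 replicate 2 these medians were 0.22 and 0.58. The part of Kupffer cell RNA in the change of Cfp was not tested.

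**Figure D5:**
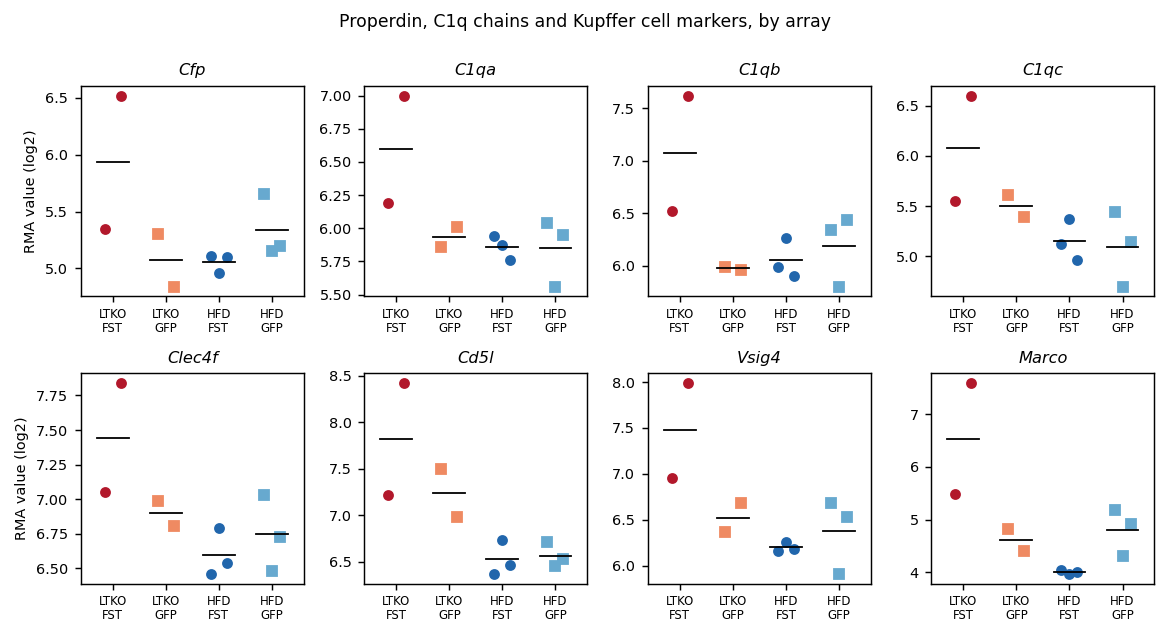
RMA values (log2) on each array of Cfp, the 3 C1q chains (named after their values were seen) and 4 Kupffer cell markers, with group means as lines. The higher of the 2 LTKO FST288 points is replicate 2 in every panel, at 6.52 in Cfp and 7.62 in C1qb.

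Whether FST288 acted differently in LTKO and HFD livers was tested as the difference of the 2 effects, LTKO minus HFD. No member was called, beside 0.216% of all genes, with 11 members, or 31.4%, at an unadjusted p under 0.05, beside 12.6% of all genes and 26.4% of those at a mean of at least 8. The median difference was -0.13, beside -0.01 over all genes and -0.09 over genes at a mean of at least 8, and 27 of 35 were negative, or 77.1%, beside 52% and 64.7%. C8g gave -0.55 ± 0.13, C2 gave -0.68 ± 0.19 and C8b gave -0.50 ± 0.15 (adjusted p = 0.106, 0.177 and 0.193). Cfp gave 1.14 ± 0.38, Pros1 0.43 ± 0.15 and F5 0.15 ± 0.09 (adjusted p of 0.25 to 0.52), and Cfp gave 0.56 without LTKO FST288 replicate 2. Without LTKO FST288 replicate 1, 3 members were called, Cfp at 1.72, C6 at -1.06 and C8b at -0.69 (adjusted p = 0.00871, 0.00871 and 0.02). The FST288 calls in HFD livers are therefore not shown to be particular to HFD livers. This difference is also the one between the 2 LTKO comparisons, so genes called lower with FST288 alone, such as C8b, C2, C1ra and C8g, are not shown to differ between vectors.

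Across the 4 direct comparisons and the difference of effects, 14 of the 35 members were never called. They were C4b, Cfp, C8a, F12, Kng2, F10, Proc, Pros1, Fga, Fgb, Fgg, Plg, Hrg and Hgfac. In LTKO GFP against HFD GFP livers 7 of the 14 calls held in all 10 fits that left out 1 array, those of C6, C9, Cfi, F11, F7, F13b and Mbl1. In LTKO FST288 against HFD FST288 livers 10 of 16 held, those of C6, C9, Cfi, F11, C8b, F7, F9, F13b, Masp1 and C4bp.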

How the data were processed

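Liver RNA from 10 samples was hybridised to Affymetrix whole-transcript arrays. The deposited values are on the log2 scale, made by the authors with RMA in Affymetrix Expression Console, per the submitters' processing notes. RMA corrects background, quantile normalizes and summarises probes, and it compresses differences. The program's version and the genome build are not given in the sources used here, and the log base was read from the range of values, 0.64 to 13.21. Arrays give no counts, so the number of arrays limits the precision. Clusters were named with the supplied platform annotation, and clusters listed with several genes were left out. For a gene with several clusters the brightest was used. All 10 arrays entered 1 fit with limma 3.58.1 in R 4.3.3, with 1 mean per group, 5 contrasts, eBayes with a trend, two-sided tests and Benjamini-Hochberg adjustment over 22180 genes. The residual and prior degrees of freedom were 6 and 7.15. The procedure was tested on simulated data.

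The members and all lists were chosen with earlier results of these data known. Every called member was named, with at least 3 in each direction filled by unadjusted p, and up to 4 called genes of each pathway list by smallest p. Alternatives changed the trend, the variance moderation, the normalization, the genes tested, the cluster rule, the arrays fitted, a replicate block and an acinar covariate, and left out each array in turn. For the pathway genes, the covariate and the arrays with high acinar or Kupffer cell markers were tried after seeing the data. Promoter sequences are RefSeq's, on GRCm38.p6.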

Additional observations from a re-analysis of the deposited data

Results flagged for a closer look

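Il1r1, the interleukin-1 receptor, was the single gene of the pathway and marker lists whose FST288 effect differed between LTKO and HFD livers by the test of the difference itself. The difference, LTKO minus HFD, was -1.12 ± 0.20 on the log2 scale (adjusted p = 0.0441). Il1r1 read 5.87 and 5.74 in LTKO FST288 livers against 6.02 and 5.92 in LTKO GFP livers, and 8.13, 8.13 and 8.10 in HFD FST288 livers against 7.43, 6.85 and 7.23 in HFD GFP livers. With 1 array left out at a time, 8 of 10 fits lost the call, those without either LTKO GFP array, LTKO FST288 replicate 2, any HFD FST288 array or HFD GFP replicate 2 or 3, where adjusted p was 0.0558 to 0.137. Over the 10 fits the difference stayed between -1.25 and -0.96. With the acinar covariate it was -1.12 (adjusted p = 0.252), and without HFD FST288 replicates 2 and 3 -1.13 (adjusted p = 0.471), the call being lost in both. No complement or coagulation member was called in this test.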

How the results depend on the processing

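Over 34 calls of members and 19 alternative settings, 0 of 646 values changed sign and 121 lost the call. Of HFD FST288 against HFD GFP livers, 4 members were called as reported, 0 without the trend, 0 after quantile normalization again, 0 with the acinar covariate, 0 without HFD FST288 replicates 2 and 3, and 8 when only these groups were fitted. In LTKO GFP against HFD GFP livers 14 became 8 without the trend. In LTKO FST288 against HFD FST288 livers 16 became 9 with the acinar covariate and 8 without HFD FST288 replicates 2 and 3. Leaving out 1 array gave 0 to 6 calls for FST288 in HFD livers, 0 to 1 in LTKO livers, 0 to 3 for the difference of effects, 11 to 14 for LTKO against HFD with GFP and 11 to 16 with FST288. With a replicate block, 1 member was called for FST288 in HFD livers. Samples of the same number correlated at -0.01 to 0.01 in their deviations in HFD livers, and those of different numbers at -0.03 to 0.04. In LTKO livers the values were -0.07 and 0.07, and with 2 arrays per group only their sign can differ. Whether samples of the same number shared a batch was not tested. A fit that leaves 1 array in a group assumes that it varies like the others. The causes of these changes were not tested. Groups of 2 and 3 arrays and the diet of the LTKO mice limit all comparisons.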
